A study of Mus musculus with 23 samples.

Results

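Livers of female mice in which the liver gene Cpt1a was ablated (LKO) were compared with livers of control females. The comparison holds 12 of the 23 livers of the series, 6 LKO and 6 control. It was described across 9862 genes, the autosomal protein-coding genes with a mean of at least 50 read counts over the 12 livers, out of 24940 genes counted in these females, of which 15688 were autosomal and protein-coding. Per the labels, the LKO livers are B100-LKO and the control livers B100-Control, so both genotypes carry what is called B100, which the labels do not spell out. All animals received the diet labelled WD for 16 weeks and were killed in the fed state. Their age, and the promoter or delivery that restricts the ablation to liver, are not given in the sources used here. The other 11 livers came from 5 control and 6 LKO males on the same diet. The gene rule uses the mean level of a gene over both genotypes. A gene low in 1 group can therefore pass through its level in the other. Gpnmb, Mmp12, Osbpl3 and Ntf3, described below, were low in the controls and passed through the LKO livers. Letm2, Etaa1 and Sccpdh lay just inside the limit with a mean of 50 counts, and Meis2, Hcar2 and Zc3h8 just outside it with 49.9. Of the 9862 genes, 9861 passed the filter on low counts. The remaining gene was Mup10, a major urinary protein, with 12593 counts in control female 4 and 1 to 11 counts in the other 11 livers.

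CPT1A is the liver isoform of carnitine palmitoyltransferase 1. It sits in the outer mitochondrial membrane and joins long-chain fatty acids to carnitine, the step that admits them to mitochondrial beta-oxidation. Malonyl-CoA, an intermediate of fatty acid synthesis, inhibits it, so that oxidation is low when synthesis is high. Fatty acids that are not oxidised are esterified into triglycerides and phospholipids, stored in lipid droplets, secreted in lipoproteins or shortened in peroxisomes. Free fatty acids also activate the nuclear receptor PPAR-alpha, which raises transcription of the genes of fatty acid oxidation.

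The control libraries held 15174756 to 17129450 counts and the LKO libraries 15434065 to 19626662. The 10 most abundant genes took 18.3% to 20.6% of a library. Genes of the mitochondrial genome took 4.1% to 4.61% of the control and 4.55% to 5.22% of the LKO libraries, so the groups overlapped. Neither the difference in this share nor its part in the results was tested. The first principal component of the log2 levels carried 27.2% of the variance, with the controls between -23.62 and 1.13 and the LKO livers between 2.08 and 17.74. LKO female 6 stood apart on the second component, which carried 13.9%. The labels number the livers within a group, and the p-values below measure the spread between these livers.

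Cpt1a was the check of the genotype. Its level, in counts per 1000000 counts, scaled for library composition (CPM), was 285, 400 and 431 (lowest, median and highest) in the control livers and 61.8, 75.3 and 86.3 in the LKO livers. The groups lay far apart, and the LKO mean was 19.6% of the control mean. The difference of mean log2(CPM + 1) was -2.33 (exact two-sided permutation test over 924 splits, p = 0.00216, the smallest possible here). In the fit across all genes with edgeR's quasi-likelihood test, the log2 fold change was -2.35 (SE 0.12, Benjamini-Hochberg adjusted p = 3.69e-08). In bulk liver, fewer cells of a type and less RNA per cell cannot be told apart, so the remaining Cpt1a RNA could come from hepatocytes or from other cells.

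In LKO females 149 genes differed from the controls at an adjusted p under 0.05, which is 1.51% of the 9861 tested; over all 13684 genes tested in these females the share was 1.42%. Of these, 95 rose (0.963%) and 54 fell (0.548%). Most changes were modest: 30 of the genes that rose and 6 of those that fell moved by at least 1 on the log2 scale, and 6 and 2 moved by at least 2. The median log2 change was 0.79 over the genes that rose, -0.56 over those that fell and -0.003 over all 9861. The 12 values did not overlap between groups for 94 of the 149 genes, and for 169 of all those tested (1.71%). The genes that rose summed to 6320 to 8160 CPM in the LKO livers against 3710 to 4610 CPM in the controls, and those that fell to 4380 to 5470 against 6550 to 8440 CPM. Since these genes were chosen by their change in the same livers, the separation of the sums follows from that choice. Among genes with a mean of 50 to 200 counts, 36 rose and 4 fell, and among genes with 1000 to 5000 counts 15 rose and 20 fell. An unadjusted p under 0.05 was found for 1629 genes (16.5%). DESeq2, another count model, called 422 of the genes (4.28%), and limma's voom with sample weights 246 (2.49%). Of the 87 called genes described by name, 49 missed the threshold when the females were fitted together with the males, among them Gpnmb (adjusted p = 0.0661), Trem2 (adjusted p = 0.167) and Cidec (adjusted p = 0.066). Of the 149 calls, 36 fell on 1 of the lists of genes described below, 27 of them higher and 9 lower, and 113 on none.

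**Figure D1:**
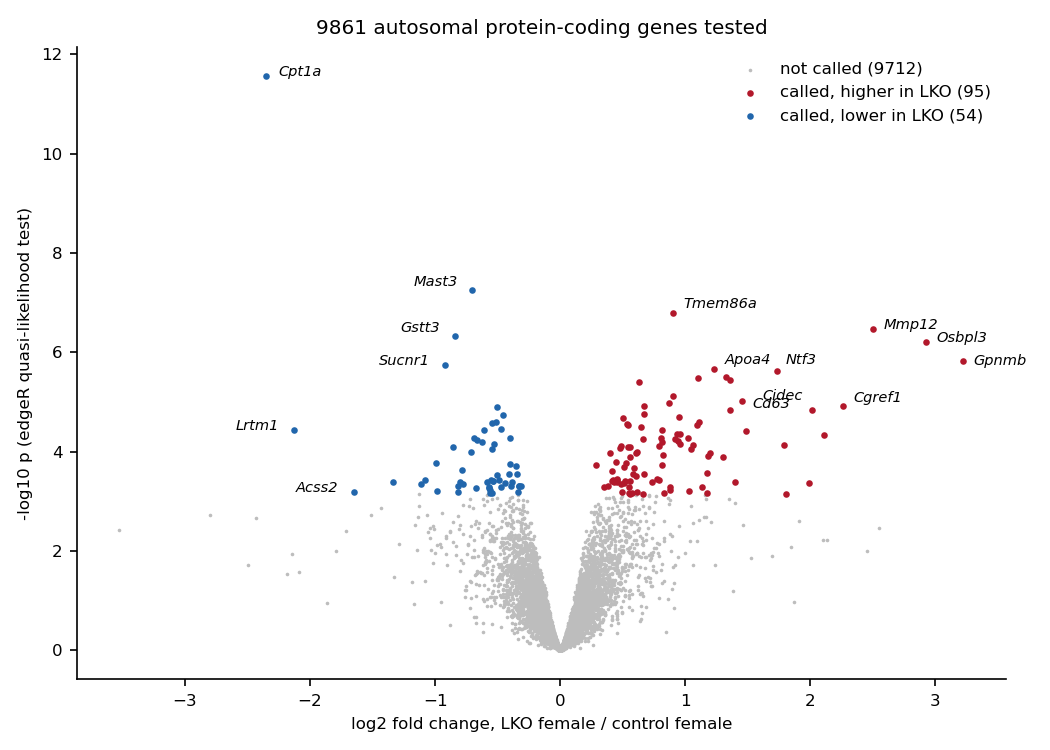
Log2 fold change (LKO over control females, x axis) against -log10 of the unadjusted p (y axis) for the 9861 genes tested, each point 1 gene. The 95 genes called higher are red, the 54 called lower are blue and the rest grey. Cpt1a stands alone at the top left, and Gpnmb, Osbpl3 and Mmp12 lie farthest to the right among the called genes.

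The number of calls rested on several single libraries. Refitting without 1 library at a time left 68 calls without control female 5, 68 without LKO female 2, 78 without LKO female 3, 83 without LKO female 4, 86 without control female 6 and 87 without control female 1, against 137 to 182 without any of the other 6. In all 12 such fits 64 of the 149 genes were called, 46 higher and 18 lower. For a gene described below as having risen or fallen with no library named, the call held in all 12. With the 11 male livers in the same fit, sharing 1 estimate of spread, 70 genes were called and 55 of them were among the 149. Lost in that fit were, among others, Gpnmb (adjusted p = 0.0661), Cd63 (0.159), Trem2 (0.167), H2-Aa (0.144), Cd74 (0.146), Cidec (0.066) and Apoa4 (0.0575).

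Of 16 genes of lipid-associated macrophages, the phagocytes that take up lipid in fatty tissue, 7 rose, none fell and 9 were not called. The log2 change was above 0 in 13 of the 16 and below 0 in 3. The median was 0.60 against -0.003 for all genes, the highest among the lists with 9 or more tested genes. The list's scores, the mean log2(CPM + 1) of its genes relative to the control mean, were -0.23 to 0.24 in the controls and 0.45 to 0.83 in the LKO livers and did not overlap. The summed CPM of the 16 genes did overlap, at 329 to 519 CPM in the controls and 441 to 542 CPM in the LKO livers. Gpnmb, a transmembrane glycoprotein of lipid-laden macrophages, was at 0.531, 1.0 and 2.30 CPM in the controls and 5.16, 8.20 and 22 CPM in the LKO livers (log2 fold change 3.22, SE 0.42, adjusted p = 0.00256). Even the lowest LKO liver lay above the highest control. Mmp12, macrophage elastase, was at 0.531, 1.76 and 2.81 CPM in the controls and 6.11, 9.07 and 13.9 CPM in the LKO livers (2.50, SE 0.29, adjusted p = 0.000908), again without overlap. Trem2, the lipid-sensing receptor that marks these macrophages, was at 2.43, 3.13 and 4.20 CPM in the controls and 5.52, 7.83 and 10.3 CPM in the LKO livers (1.32, SE 0.18, adjusted p = 0.00314). Its groups did not overlap either, and LKO female 6 was the lowest of the 6 LKO livers. Among the 9 markers not called, the log2 changes were 1.17 for Itgax, 0.54 for Lgals3, 0.39 for Cd68, 0.25 for Acp5, 0.12 for Msr1, 0.10 for Slc37a2, -0.03 for Cd9, -0.49 for Atp6v0d2 and -1.08 for Fabp5, with adjusted p from 0.0546 to 0.961.

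Cd63, a tetraspanin of late endosomes, was at 7.77, 9.44 and 13 CPM in the controls and 15.8, 27.2 and 39.3 CPM in the LKO livers (log2 fold change 1.45, SE 0.22, adjusted p = 0.00651), without overlap. Spp1, the secreted matrix protein osteopontin, was the most abundant of the 7 per length, at a mean of 29.5 FPKM (fragments per kilobase and library size). It was at 34.5, 37.9 and 41.2 CPM in the controls and 43.5, 56.9 and 76.6 CPM in the LKO livers (0.66, SE 0.12, adjusted p = 0.0135), so its groups were separate but close. Lpl and Capg, chosen for mention after their values were seen, also rose. Lpl, the lipoprotein lipase that releases fatty acids from circulating triglycerides, was at 18.5, 33.4 and 46.1 CPM in the controls and 59.9, 66.7 and 73.3 CPM in the LKO livers (1.03, SE 0.18, adjusted p = 0.0134). The LKO livers varied little for this gene and the controls much more. Capg, an actin-capping protein of macrophages, changed by 0.82 (SE 0.17, adjusted p = 0.0258) and missed the threshold without control female 1, control female 5, LKO female 2, LKO female 3 or LKO female 4, with adjusted p up to 0.0651.

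Markers of other cell types were measured beside these genes. The 15 markers of resident Kupffer cells, the long-lived macrophages of the liver, summed to 1105 to 1877 CPM in the controls and 1180 to 1814 CPM in the LKO livers. Of the 14 tested, 0 were called by edgeR, DESeq2 or limma's voom, 1 had an unadjusted p under 0.05, and their median log2 change was -0.06. The 11 monocyte and neutrophil markers summed to 7.89 to 22.8 CPM in the controls and 15.8 to 32.2 CPM in the LKO livers, and Ly6g and Cxcr2 had at most 10 counts in every library. The 15 lymphocyte markers summed to 13.2 to 21.3 CPM in the controls (median 18.3) and 12.8 to 86.1 CPM in the LKO livers (median 18.9). The lymphocyte score was 2.29 in LKO female 5 and at most 0.54 in the other LKO livers. Only 1 monocyte and neutrophil marker and 3 lymphocyte markers were tested, and none was called. The endothelial list had a median change of -0.16, with 12 of 14 tested genes below 0. Stellate cells and fibroblasts had 0.04 (3 of 11 below 0) and hepatocytes -0.19 (6 of 9 below 0). Among these 14, 11 and 9 genes, 0 were called by the same 3 tools. An unadjusted p under 0.05 in edgeR's test was found for 5, 2 and 0 of them, and for 16.5% of all genes tested under the rule. Adipocyte markers summed to at most 6.64 CPM in any library. The part of recruited blood cells in the macrophage genes was not tested.

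**Figure D2:**
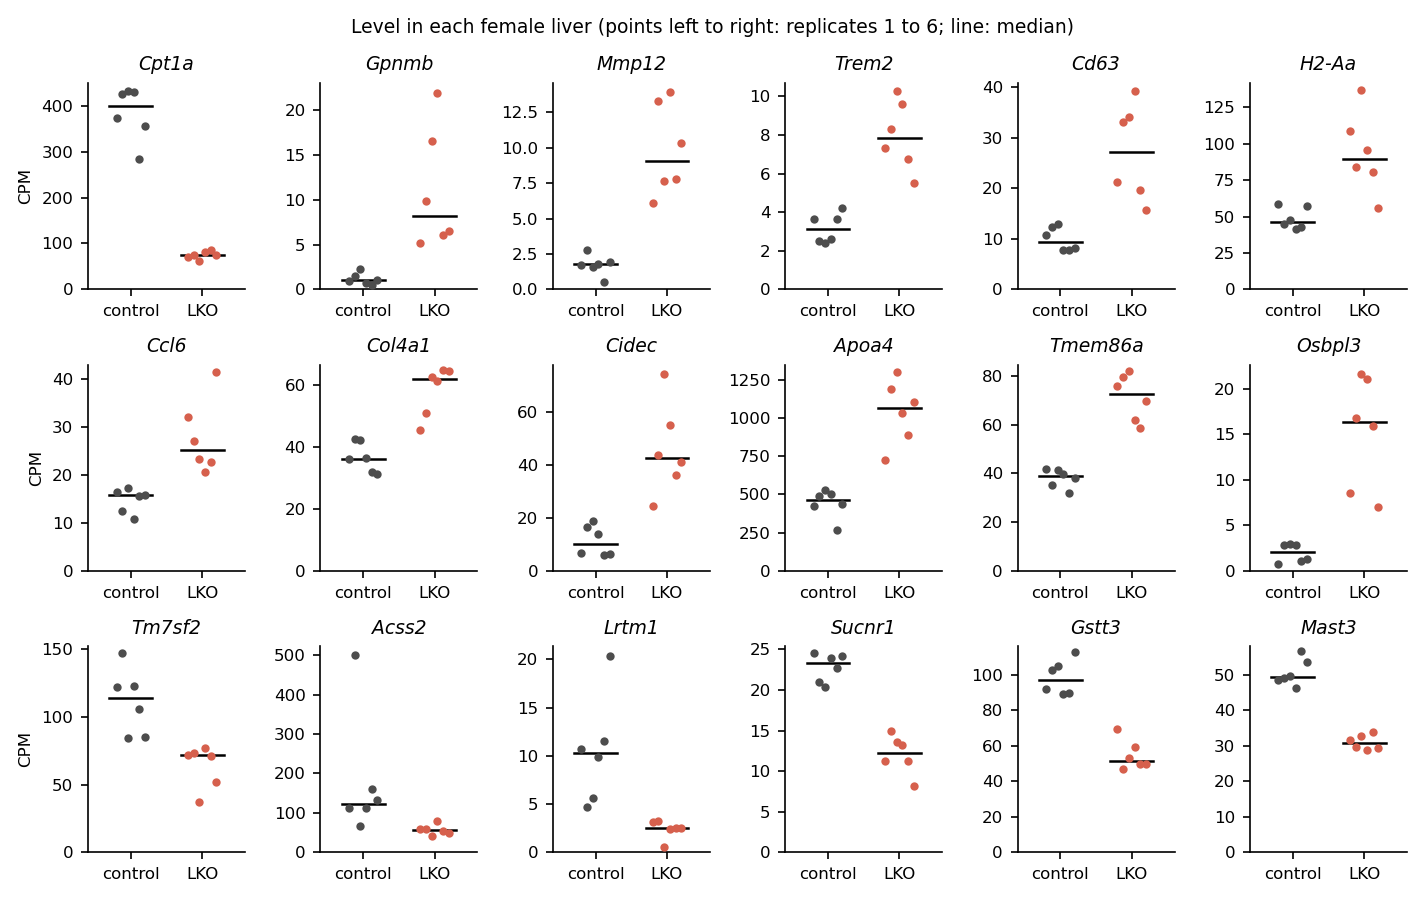
Level in CPM (linear y axes from 0) of 18 genes in each of the 6 control (grey) and 6 LKO (red) female livers, with the median as a line. Gpnmb, Mmp12, Trem2 and Cd63 are above every control in every LKO liver, whereas H2-Aa and Acss2 overlap between groups.

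Some genes of class II antigen presentation rose. Of 14 tested genes on the list for antigen presentation, 4 rose and none fell: the 3 class II chain genes H2-Aa, H2-Ab1 and H2-Eb1, which encode the peptide-binding molecule, and Cd74, the invariant chain that escorts it. The class II loading genes H2-DMb1 and H2-DMa had log2 changes of 0.68 (adjusted p = 0.0741) and 0.48 (adjusted p = 0.129) and were not called. The 8 remaining genes, of the class I pathway, ranged from -0.19 to 0.06, and the median of all 14 was 0.06. H2-Aa was at 41.6, 46.2 and 58.7 CPM in the controls and 56.1, 89.9 and 137 CPM in the LKO livers (log2 fold change 0.94, SE 0.17, adjusted p = 0.0143). H2-Ab1 changed by 0.96 (SE 0.18, adjusted p = 0.0155) and H2-Eb1 by 0.96 (SE 0.17, adjusted p = 0.0125). Cd74, the most abundant of the 4 per length, was at 139, 159 and 188 CPM in the controls and 174, 269 and 377 CPM in the LKO livers (0.82, SE 0.15, adjusted p = 0.0146). In all 4 genes LKO female 3 was the highest liver of its group, LKO female 6 was the lowest and lay within the control range, and control female 1 was the highest control.

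The promoters of H2-Aa and H2-Eb1 are shown because their genes moved together, lie side by side on chromosome 17 and hold the box marked below. H2-Ab1, also next to H2-Aa, moved the same way but was not matched to a RefSeq promoter. Both sequences are RefSeq windows from 250 bases before to 50 bases after the start of the gene, in build GRCm38.p6, 5′ to 3′ on the strand of the gene. H2-Aa is at chr17:34287774-34288073 on the minus strand and H2-Eb1 at chr17:34305617-34305916 on the plus strand. Capitals mark CCAAT, the box bound by the factor NF-Y, read on either strand, so that ATTGG is the same box reversed.
H2-Aa: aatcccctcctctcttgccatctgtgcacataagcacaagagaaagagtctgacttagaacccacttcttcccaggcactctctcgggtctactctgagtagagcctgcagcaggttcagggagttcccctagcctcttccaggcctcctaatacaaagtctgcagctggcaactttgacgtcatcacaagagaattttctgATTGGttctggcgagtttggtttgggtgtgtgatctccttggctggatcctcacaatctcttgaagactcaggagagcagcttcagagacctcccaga
H2-Eb1: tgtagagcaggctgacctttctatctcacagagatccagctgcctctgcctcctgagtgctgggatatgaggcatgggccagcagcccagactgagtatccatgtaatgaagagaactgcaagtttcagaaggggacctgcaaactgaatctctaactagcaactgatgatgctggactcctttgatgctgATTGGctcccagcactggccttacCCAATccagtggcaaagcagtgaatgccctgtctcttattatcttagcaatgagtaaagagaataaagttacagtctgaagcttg
The box began 48 bases before the start in H2-Aa, and 59 and 35 bases before it in H2-Eb1. Of the 10 antigen presentation genes matched to a RefSeq promoter, 9 held the box (90.0%), as did 42.1% of the 7906 tested genes that were matched and 37.4% of all 32851 promoters. The share was 32.0% among the 75 matched genes that rose and 53.5% among the 43 that fell. A match describes letters and does not show binding.

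Among chemokines, cytokines and their receptors, 3 of 18 tested genes rose and none fell, with a median change of -0.03. Ccl6, a chemokine of myeloid cells, was at 10.8, 15.8 and 17.2 CPM in the controls and 20.7, 25.3 and 41.5 CPM in the LKO livers (log2 fold change 0.92, SE 0.17, adjusted p = 0.0135). The groups did not overlap, and LKO female 6 was the highest. Cxcl16, a membrane-bound chemokine that also takes up oxidised lipoprotein, changed by 0.44 (SE 0.09, adjusted p = 0.024) without overlap. It missed the threshold without control female 6, LKO female 2 or LKO female 3, with adjusted p up to 0.0651. Cxcl14, a tissue chemokine, changed by 1.03 (SE 0.24, adjusted p = 0.0486) and passed in 1 of the 12 fits, that without control female 2, with adjusted p up to 0.114 in the others. Il1rn, the interleukin 1 receptor antagonist, was at 5.57, 9.16 and 11.6 CPM in the controls and 10.8, 14.5 and 20.1 CPM in the LKO livers (0.76, SE 0.19, adjusted p = 0.0588). It passed without control female 3 (adjusted p = 0.041).

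Lysosomal genes showed small shifts. Of 31 tested, 2 rose and none fell, 24 had a log2 change above 0, and their median was 0.13. Hexa, a subunit of the lysosomal enzyme hexosaminidase, was at 87.3, 95.3 and 114 CPM in the controls and 118, 127 and 141 CPM in the LKO livers (log2 fold change 0.40, SE 0.08, adjusted p = 0.0176). The groups were separate, and the call was lost without control female 5 (adjusted p = 0.0533). Gusb, lysosomal beta-glucuronidase, changed by 0.35 (SE 0.08, adjusted p = 0.042). It was called without control female 3 or LKO female 1 and missed the threshold without any other library, with adjusted p up to 0.11. The letters CACGTG, the core of the CLEAR site of lysosomal genes, were in 9 of 24 matched lysosomal promoters (37.5%), in 12.2% of matched tested genes and in 0 of 12 matched promoters of the lipid-associated macrophage list.

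Of 20 tested collagen and matrix genes, 1 rose, none fell and 17 had a log2 change above 0, with a median of 0.30. The gene that rose was Col4a1, a chain of basement membrane collagen, at 31.2, 36.3 and 42.6 CPM in the controls and 45.6, 62.1 and 64.9 CPM in the LKO livers (log2 fold change 0.67, SE 0.11, adjusted p = 0.00803). Its groups did not overlap. Loxl2, which cross-links collagen, had a change of 0.77 (SE 0.18, adjusted p = 0.0517) and Col5a2, a fibrillar collagen chain, 0.63 (SE 0.16, adjusted p = 0.0691). Loxl2 passed without control female 2 or LKO female 1 (adjusted p down to 0.035) and Col5a2 without LKO female 5 (adjusted p = 0.0385). The stellate cell and fibroblast markers summed to 573 to 677 CPM in the controls and 398 to 683 CPM in the LKO livers.

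**Figure D3:**
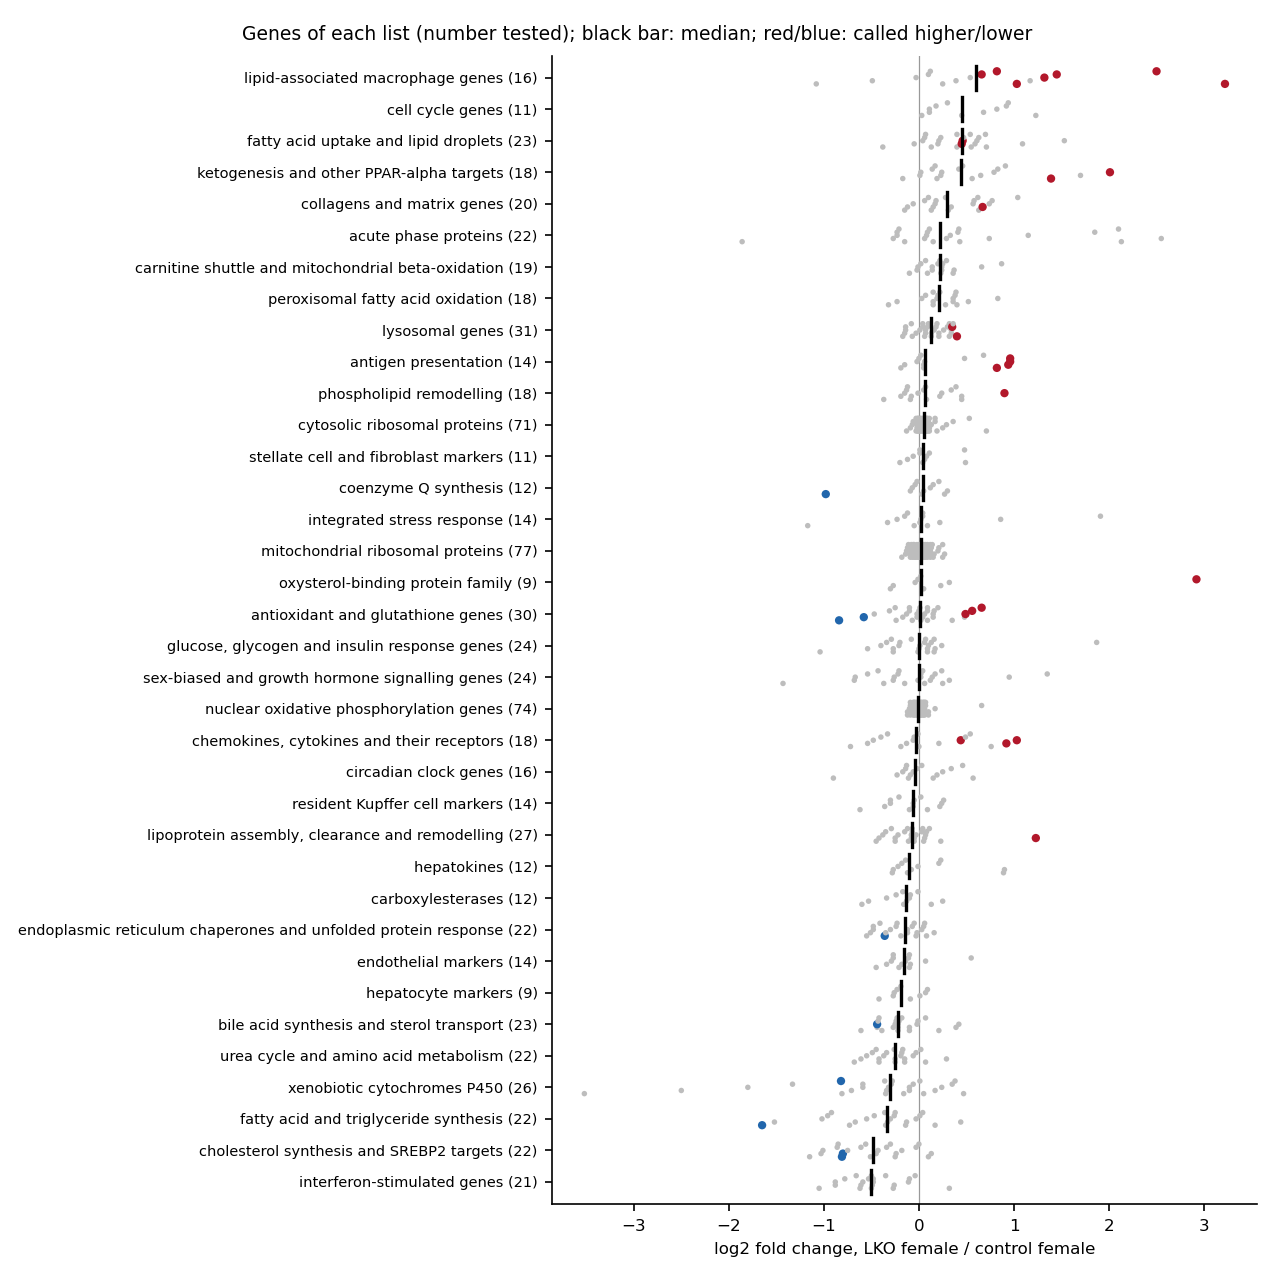
Log2 fold change (LKO over control females, x axis) of every tested gene on each list with 9 or more tested genes, lists ordered by median (black bar). Large red and blue points are the genes called higher and lower, grey points are not called. Lipid-associated macrophage genes have the highest median, 0.60, and interferon-stimulated genes the lowest, -0.50.

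Few lipid storage genes passed the test singly, although most had a log2 change above 0. Of 23 tested genes for fatty acid uptake and lipid droplets, 2 rose, none fell and 21 had a log2 change above 0, with a median of 0.45. The list's scores were -0.36 to 0.26 in the control livers and 0.34 to 0.49 in the LKO livers and did not overlap. Control females 5 and 6 were the lowest. The 2 genes that rose are neighbours on chromosome 5 and both encode lipid droplet proteins. Hsd17b13 was at 295, 350 and 419 CPM in the controls and 408, 482 and 545 CPM in the LKO livers (log2 fold change 0.46, SE 0.10, adjusted p = 0.0384). Hsd17b11 changed by 0.45 (SE 0.10, adjusted p = 0.0384). Both overlapped by 1 LKO liver and 1 control. Hsd17b13 passed without control female 2, control female 3 or LKO female 5 and missed the threshold without any other library. Hsd17b11 passed without control female 1, control female 3, LKO female 1 or LKO female 6 and missed it in the other 8 fits, where adjusted p for both reached 0.0987. Plin2, the main coat protein of hepatocyte droplets, was at 383, 543 and 749 CPM in the controls and 713, 916 and 1147 CPM in the LKO livers (0.71, SE 0.17, adjusted p = 0.0519). It passed without control female 2, control female 4 or LKO female 5 (adjusted p down to 0.0286). Fabp2, a fatty acid binding protein, had a change of 0.54 (SE 0.13, adjusted p = 0.0592) and passed without control female 4 or LKO female 6 (adjusted p down to 0.0219).

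Genes regulated by PPAR-alpha, including those of ketone body synthesis, had a median log2 change of 0.44. Of 18 tested, 2 rose, none fell and 17 had a change above 0. Cidec, which fuses lipid droplets, was at 5.84, 10.3 and 18.7 CPM in the controls and 24.4, 42.5 and 74.5 CPM in the LKO livers (log2 fold change 2.01, SE 0.32, adjusted p = 0.00691). Every LKO liver was above every control. Acot2, a mitochondrial acyl-CoA thioesterase, was at 8.47, 18.1 and 29.7 CPM in the controls and 32.8, 45.0 and 77.8 CPM in the LKO livers (1.39, SE 0.31, adjusted p = 0.0384), also without overlap. The call held without control female 2, control female 4, LKO female 1 or LKO female 6 and missed the threshold in the other 8 fits, with adjusted p up to 0.0887. The list's scores were -0.59 to 0.47 in the controls and 0.32 to 0.88 in the LKO livers.

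The oxidation machinery itself gave no call apart from Cpt1a, which was left off its lists. Of 19 tested genes of the carnitine shuttle and mitochondrial beta-oxidation, 0 were called by edgeR and 1 each by DESeq2 and voom, and 8 had an unadjusted p under 0.05. Their log2 change was above 0 in 16, with a median of 0.22. Crat, which makes acetylcarnitine, was at 43.8, 105 and 122 CPM in the controls and 145, 160 and 192 CPM in the LKO livers (0.87, SE 0.22, adjusted p = 0.062). Its groups did not overlap, and it passed without control female 3 (adjusted p = 0.0437). Slc22a5, the carnitine transporter, had a change of 0.66 (SE 0.21, adjusted p = 0.139) and Hadhb, a subunit of the trifunctional protein, 0.36 (SE 0.11, adjusted p = 0.132). The 18 tested peroxisomal oxidation genes gave the same counts of calls and of unadjusted p under 0.05, with 16 changes above 0 and a median of 0.21. Pex11a, which drives peroxisome division, was at 46.0, 110 and 142 CPM in the controls and 136, 178 and 244 CPM in the LKO livers (0.83, SE 0.23, adjusted p = 0.0906).

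Gpat3 and Tmem120a, which are on none of the lists and were chosen after their values were seen, rose in LKO livers. Gpat3, which starts triglyceride synthesis in the endoplasmic reticulum, was at 10.4, 14.2 and 21.4 CPM in the controls and 22.3, 27.8 and 33.7 CPM in the LKO livers (log2 fold change 0.93, SE 0.16, adjusted p = 0.0125). Tmem120a, a membrane protein first described in fat cells, changed by 0.67 (SE 0.11, adjusted p = 0.00651), from 73.6, 80.0 and 102 CPM to 112, 137 and 159 CPM. Neither gene overlapped between groups. Apoa4, an apolipoprotein of triglyceride-rich particles, was at 269, 463 and 531 CPM in the controls and 728, 1069 and 1299 CPM in the LKO livers (1.23, SE 0.17, adjusted p = 0.0029). It was the only call among 27 tested genes of lipoprotein assembly, clearance and remodelling, whose median change was -0.07.

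Tmem86a, a lysoplasmalogenase that breaks down ether phospholipids, had the lowest p of the genes that rose. It was at 31.8, 39.0 and 41.8 CPM in the controls and 58.4, 72.7 and 82.1 CPM in the LKO livers (log2 fold change 0.90, SE 0.10, adjusted p = 0.000541). The groups were wide apart, and it was the 1 call among 18 tested phospholipid remodelling genes (median 0.06). Osbpl3, an oxysterol-binding protein family member that acts at membrane contact sites, was at 0.788, 2.11 and 2.97 CPM in the controls and 6.98, 16.4 and 21.6 CPM in the LKO livers (2.92, SE 0.35, adjusted p = 0.00121). The lowest LKO liver was above the highest control. Of the 9 tested members of that family it was the only call, and the median of the 9 was 0.02.

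Genes of sterol synthesis were lower in most members, and 2 of 22 tested passed the test. Both fell: Tm7sf2, a sterol reductase of the late pathway, and Pmvk, the phosphomevalonate kinase of the early pathway. The median log2 change of the 22 genes was -0.48, and 19 were below 0. Tm7sf2 was at 84.7, 114 and 147 CPM in the controls and 37.5, 71.7 and 77.2 CPM in the LKO livers (log2 fold change -0.80, SE 0.18, adjusted p = 0.0384), without overlap. It passed without control female 3 or control female 6 and missed the threshold without any other library, with adjusted p up to 0.0814. Pmvk was at 20.4, 41.1 and 62.2 CPM in the controls and 18.3, 23.8 and 25.9 CPM in the LKO livers (-0.81, SE 0.19, adjusted p = 0.0486). Control female 3 was the lowest control and lay inside the LKO range, and Pmvk passed without that liver alone, with adjusted p up to 0.106 in the other 11 fits.

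The scores of the sterol synthesis list were -0.57 to 0.48 in the controls and -0.66 to -0.20 in the LKO livers, with control female 3 at the lower end of its group. Leaving out control female 3 gave a median of -0.58, and leaving out control female 2 gave -0.39.

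The promoters of the 2 called sterol genes are shown for the same box, as windows of the same kind and build. Tm7sf2 is at chr19:6067801-6068100 on the minus strand and Pmvk at chr3:89454291-89454590 on the plus strand. Capitals again mark CCAAT on either strand.
Tm7sf2: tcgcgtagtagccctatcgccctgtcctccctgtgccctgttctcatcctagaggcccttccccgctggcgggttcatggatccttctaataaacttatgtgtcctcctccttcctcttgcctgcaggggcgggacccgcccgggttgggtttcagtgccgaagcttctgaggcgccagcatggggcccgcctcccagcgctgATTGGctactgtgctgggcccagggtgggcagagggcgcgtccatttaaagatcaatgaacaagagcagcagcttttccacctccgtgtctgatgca
Pmvk: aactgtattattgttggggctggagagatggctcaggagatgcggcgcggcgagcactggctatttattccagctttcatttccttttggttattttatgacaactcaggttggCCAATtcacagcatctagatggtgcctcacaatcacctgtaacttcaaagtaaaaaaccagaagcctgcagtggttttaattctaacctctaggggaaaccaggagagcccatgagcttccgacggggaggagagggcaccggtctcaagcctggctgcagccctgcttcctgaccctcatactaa
The box began 47 bases before the start in Tm7sf2 and 136 bases before it in Pmvk. It was present in 14 of the 15 sterol synthesis genes matched to RefSeq (93.3%). The letters TCACNCCAC, the core of a sterol regulatory element, were in 1 of the 15 (6.67%) and in 1.53% of matched tested genes.

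Fatty acid and triglyceride synthesis genes had a median log2 change of -0.34, with 18 of 22 tested below 0, 1 called lower and none higher. The gene that fell was Acss2, which makes acetyl-CoA from acetate. It was at 67.8, 123 and 500 CPM in the controls and 42.4, 57.1 and 80.8 CPM in the LKO livers (log2 fold change -1.65, SE 0.38, adjusted p = 0.0487). Control female 2 held the value of 500 CPM, and without it the change was -1.02 (adjusted p = 0.0215). Acss2 also passed without control female 3 or control female 4 and missed the threshold in the other 9 fits, with adjusted p up to 0.11. Pnpla3, a lipase-like droplet protein, was at 3.58, 7.64 and 22.6 CPM in the controls and 1.81, 3.32 and 5.48 CPM in the LKO livers (-1.52, SE 0.40, adjusted p = 0.0761). It passed without control female 3 (adjusted p = 0.0359). Mlxipl, the carbohydrate-sensing transcription factor ChREBP, had a change of -0.35 (SE 0.10, adjusted p = 0.0905) and passed without control female 1 (adjusted p = 0.034). Me1, malic enzyme, had a change of -0.73 (SE 0.24, adjusted p = 0.138) and -0.45 (adjusted p = 0.198) without control female 2.

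Of 23 tested genes of bile acid synthesis and sterol transport, 1 fell, none rose and 19 were below 0, with a median of -0.22. Fgfr4, the hepatocyte receptor through which the gut hormone FGF15 lowers bile acid synthesis, was at 43.5, 49.4 and 59.5 CPM in the controls and 30.2, 36.6 and 44.2 CPM in the LKO livers (log2 fold change -0.44, SE 0.10, adjusted p = 0.0395). It overlapped only by LKO female 6 and control female 6. The call held without control female 3, control female 4, control female 6, LKO female 5 or LKO female 6 and missed the threshold in the other 7 fits, with adjusted p up to 0.0988. Abcb11, the bile salt export pump, had a change of -0.61 (SE 0.15, adjusted p = 0.0644), and Abcb4, which exports phosphatidylcholine into bile, one of 0.39 (SE 0.09, adjusted p = 0.0538). Abcb11 passed without control female 3, control female 4 or LKO female 1 (adjusted p down to 0.0327), and Abcb4 without control female 3 or LKO female 1 (adjusted p down to 0.0271).

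**Figure D4:**
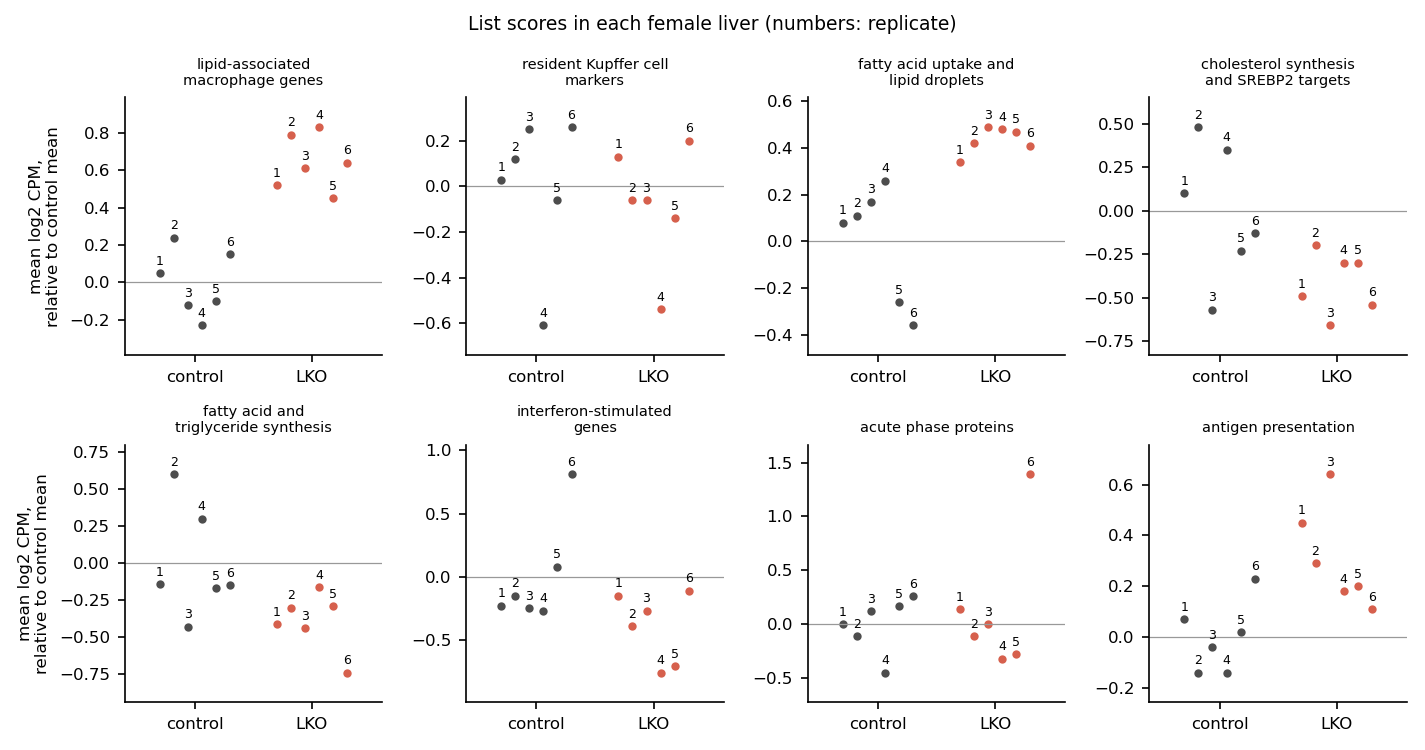
Mean log2(CPM + 1) of the tested genes of 8 lists in each control (grey) and LKO (red) female liver, relative to the control mean, with replicate numbers (y axes differ). The lipid-associated macrophage scores run from -0.23 to 0.24 in controls and 0.45 to 0.83 in LKO livers. Control female 6 stands high for interferon-stimulated genes, LKO female 6 for acute phase proteins, and control female 2 for both synthesis lists.

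Several of the largest increases belonged to none of the lists. Cgref1, a secreted calcium-binding protein, was at 0.840, 2.05 and 4.06 CPM in the controls and 7.65, 9.34 and 18.5 CPM in the LKO livers (log2 fold change 2.26, SE 0.35, adjusted p = 0.00651). Ntf3, the growth factor neurotrophin 3, was at 0.909, 1.41 and 2.26 CPM in the controls and 2.80, 4.87 and 6.92 CPM in the LKO livers (1.74, SE 0.23, adjusted p = 0.0029). Neither gene overlapped. On the log2 scale, Agap2, which activates GTP hydrolysis by ARF proteins, rose by 1.36 (adjusted p = 0.00331, SE 0.19). Slc41a3, a magnesium transporter, rose by 1.11 (adjusted p = 0.00941, SE 0.19) and Nt5dc2, a nucleotidase-domain protein, by 1.10 (adjusted p = 0.00314, SE 0.15). The lowest LKO liver was above the highest control for Agap2, Slc41a3 and Nt5dc2 alike. Mthfd1l, a mitochondrial enzyme of folate metabolism, changed by 1.30 (SE 0.25, adjusted p = 0.0202). It missed the threshold without control female 1, control female 5, control female 6, LKO female 2 or LKO female 3 (adjusted p up to 0.0597). Synpo, an actin-binding protein, changed by 1.18 (SE 0.23, adjusted p = 0.0199) and missed it without control female 1, control female 5, LKO female 2 or LKO female 4 (adjusted p up to 0.0581).

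After Cpt1a, the largest decrease among genes without overlap was that of Lrtm1, a leucine-rich repeat membrane protein. It was at 4.75, 10.3 and 20.4 CPM in the controls and 0.559, 2.52 and 3.23 CPM in the LKO livers (log2 fold change -2.13, SE 0.37, adjusted p = 0.0111). Both groups varied, and LKO female 3 was the lowest liver by a wide gap. Acpp, prostatic acid phosphatase, changed by -1.33 (SE 0.29, adjusted p = 0.0384) from a control median of 4.44 CPM. Its call held without control female 1, control female 3, control female 4 or LKO female 6 and missed the threshold in the other 8 fits (adjusted p up to 0.089). Coq8a, an atypical kinase needed for coenzyme Q synthesis, was at 207, 291 and 501 CPM in the controls and 123, 167 and 203 CPM in the LKO livers (-0.98, SE 0.23, adjusted p = 0.0468). It was the only call among 12 tested coenzyme Q synthesis genes (median 0.04). Coq8a passed without control female 2, control female 3 or control female 4 and missed the threshold in the other 9 fits (adjusted p up to 0.112).

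Sucnr1, the receptor for succinate, was at 20.4, 23.4 and 24.6 CPM in the controls and 8.15, 12.2 and 15 CPM in the LKO livers (log2 fold change -0.92, SE 0.12, adjusted p = 0.00274). The controls were tightly grouped and the LKO livers all lower. Gstt3, a glutathione transferase, was at 89.1, 97.3 and 113 CPM in the controls and 47.2, 51.6 and 69.3 CPM in the LKO livers (-0.84, SE 0.10, adjusted p = 0.00106). Mast3, a microtubule-associated kinase, was at 46.2, 49.3 and 56.7 CPM in the controls and 28.9, 30.7 and 33.9 CPM in the LKO livers (-0.70, SE 0.07, adjusted p = 0.000347). Mast3 had the lowest p after Cpt1a, and neither it nor Gstt3 overlapped. Smaller decreases without overlap were those of Tiam2, an activator of RAC1 (-0.86, adjusted p = 0.0159), Vgll4, a TEAD cofactor (-0.69, adjusted p = 0.0134), Zfp276, a zinc finger protein (-0.66, adjusted p = 0.0136), Slc29a1, a nucleoside transporter (-0.61, adjusted p = 0.0111), and Rmdn2, a microtubule-binding protein (-0.55, adjusted p = 0.00941). Tmie, a protein of the hair-cell transduction channel, fell by 0.71 on the log2 scale (adjusted p = 0.0176) and missed the threshold without LKO female 2 (adjusted p = 0.0525).

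The called genes with the highest mean level per length, in FPKM, included 4 that rose and 4 that fell. Apoa4 had the highest mean, 408.7 FPKM. Rgs16, which shuts off G protein signals, followed with 321.0 FPKM. Its level was 694, 938 and 1107 CPM in the controls and 389, 518 and 850 CPM in the LKO livers (log2 fold change -0.78, SE 0.17, adjusted p = 0.0395), with LKO female 1 inside the control range. It passed without control female 4, LKO female 1 or LKO female 5 and missed the threshold in the other 9 fits (adjusted p up to 0.0913). Gpx4, the peroxidase that repairs oxidised membrane lipid, was at 256, 315 and 325 CPM in the controls and 360, 429 and 468 CPM in the LKO livers (0.49, SE 0.09, adjusted p = 0.0156), without overlap.

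The calls of the other abundant genes lay close to the threshold and were lost in most of the fits without 1 liver. Ephx1, microsomal epoxide hydrolase, changed by 0.66 (SE 0.16, adjusted p = 0.0498) and passed without control female 3 or LKO female 6 only (adjusted p up to 0.123 otherwise). Aldh1l1, a folate dehydrogenase, changed by -0.56 (SE 0.13, adjusted p = 0.0463) and passed without control female 2, control female 3 or control female 4 only (up to 0.112). Qdpr, which regenerates tetrahydrobiopterin, changed by -0.54 (SE 0.13, adjusted p = 0.049) and passed without control female 3, control female 4 or LKO female 1 only (up to 0.125). Rdh16f2, of the retinol dehydrogenase family, changed by -0.68 (SE 0.15, adjusted p = 0.0429) and passed without control female 2, control female 4 or LKO female 1 only (up to 0.107). Its reads may be shared with near-identical family members.

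Of 30 tested antioxidant and glutathione genes, 3 rose and 2 fell, with a median of 0.01. The genes were Gpx4 and Ephx1, given above, Gstp1, which rose by 0.56 (SE 0.13, adjusted p = 0.0496) on the log2 scale, Gstt3, and Gstm6, which fell by 0.58 (SE 0.13, adjusted p = 0.0384). Gstp1 passed without control female 6, LKO female 4 or LKO female 5 only, with adjusted p up to 0.115. Gstm6 passed without control female 3, control female 4 or LKO female 1 only, with adjusted p up to 0.0987. The glutathione transferases are families of similar genes whose reads could be split between copies. Of 26 tested xenobiotic cytochromes P450, 1 fell, none rose and 19 were below 0, with a median of -0.30. Cyp1a2, which oxidises caffeine and aromatic amines, was at 256, 368 and 501 CPM in the controls and 153, 203 and 275 CPM in the LKO livers (-0.82, SE 0.18, adjusted p = 0.042). It overlapped by LKO female 5 and control female 4, and missed the threshold without control female 1, control female 5, control female 6, LKO female 2, LKO female 3, LKO female 4 or LKO female 6 (adjusted p up to 0.106). Of 22 tested endoplasmic reticulum chaperone and unfolded protein genes, 1 fell, with a median of -0.15, which was -0.05 without control female 3. That gene was Edem1, which sends misfolded glycoproteins to degradation, at -0.36 (SE 0.07, adjusted p = 0.0265), lost without control female 5, control female 6, LKO female 2, LKO female 3 or LKO female 4 (adjusted p up to 0.0698).

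Some lists had most of their genes on 1 side of 0 without a call. Of 21 tested interferon-stimulated genes, 20 were below 0 with a median of -0.50, with 0 called by edgeR, 3 by DESeq2 and 0 by voom, and 12 at an unadjusted p under 0.05. Control female 6 carried the highest levels. Ifit1, an antiviral RNA-binding protein, was at 48.3 CPM in that liver and at 15.9 to 25.8 CPM in the other controls, against 8.96, 13.5 and 18.9 CPM in the LKO livers (log2 fold change -0.88, SE 0.26, adjusted p = 0.109). Without control female 6 the Ifit1 change was -0.58 (adjusted p = 0.186), that of Ifit3, a related gene, -0.56 (adjusted p = 0.181) in place of -0.88, and the list median -0.28. Acute phase proteins had a median of 0.22, and -0.15 without LKO female 6, with 0 of 22 called by edgeR, 2 by DESeq2 and 0 by voom, and 8 at an unadjusted p under 0.05. In LKO female 6, Saa1, a serum amyloid, was at 1347 CPM against 71.1 to 153 CPM in the other LKO livers and 60.0, 66.7 and 90.8 CPM in the controls. Its log2 change was 2.13 (SE 0.66, adjusted p = 0.128), and 0.55 (adjusted p = 0.142) without that liver.

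All 11 tested cell cycle genes had a log2 change above 0, with a median of 0.45, which was 0.22 without LKO female 3 and 0.71 without control female 4. Of 22 tested urea cycle and amino acid genes 19 were below 0, with a median of -0.25. Of these 2 lists 0 genes were called by edgeR or voom and 0 and 1 by DESeq2, and 5 and 9 had an unadjusted p under 0.05. Nuclear oxidative phosphorylation genes (74 tested, median -0.01), mitochondrial ribosomal proteins (77, 0.02) and cytosolic ribosomal proteins (71, 0.05) lay near 0. By edgeR 0 of them were called, by DESeq2 0, 0 and 2, by voom 0, 0 and 1, and 0, 5 and 5 had an unadjusted p under 0.05. Sex-biased and growth hormone genes and those of glucose and insulin response both had a median of 0.00 over 24 tested genes. By edgeR 0 genes of either were called, by DESeq2 3 and 2, by voom 0 and 1, and 5 and 5 had an unadjusted p under 0.05. Fgf21, the fasting hormone of the liver, on the integrated stress response list, was at 1.79, 5.58 and 9.21 CPM in the controls and 6.10, 14.4 and 63.5 CPM in the LKO livers (1.91, SE 0.53, adjusted p = 0.0906). LKO female 6 held the highest value, and without it the change was 1.15 (adjusted p = 0.126). Hepatokines (12 tested, median -0.10), carboxylesterases (12 tested, median -0.14) and circadian clock genes (16 tested, median -0.04) gave 0 calls by edgeR. In that order, 3, 3 and 1 of them had an unadjusted p under 0.05, DESeq2 called 0, 1 and 0, and voom 0, 1 and 0.

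Called genes were also placed along the chromosomes, using gene positions as the authors' table gives them. There were 37 pairs of called genes within 1 Mb of each other, made of 49 genes, and 24 pairs moved in the same direction. No share over all tested genes was computed for either count, and 95 of the 149 called genes rose, so these counts are a description only. Dpp7, a lysosomal peptidase, and Uap1l1 lie 3530 bases apart on chromosome 2, and they rose by 0.50 (adjusted p = 0.00862) and 1.36 (adjusted p = 0.00691) on the log2 scale. Dhx33, a helicase, and Derl2, of the endoplasmic reticulum degradation channel, lie 2727 bases apart on chromosome 11, and fell by 0.53 (adjusted p = 0.0155) and 0.40 (adjusted p = 0.0256). Derl2 missed the threshold without control female 5, control female 6, LKO female 2, LKO female 3 or LKO female 4 (adjusted p up to 0.0686). The urate and phosphate transporter genes Slc17a3 and Slc17a4 on chromosome 13 fell by 0.33 (adjusted p = 0.042) and 0.52 (adjusted p = 0.00941). Slc17a3 passed without control female 2 or LKO female 6 only (adjusted p up to 0.0975).

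Coq8a and Psen2, a presenilin, lie 27402 bases apart on chromosome 1. Psen2 fell by 0.53 on the log2 scale (adjusted p = 0.0384) and missed the threshold without control female 1, control female 5, control female 6, LKO female 2, LKO female 3, LKO female 4 or LKO female 5 (adjusted p up to 0.0987). Aldh1l1 and Slc41a3 lie 4522 bases apart on chromosome 6 and moved in opposite directions. Tmem176a and Tmem176b on chromosome 6 overlap by 577 bases, so reads could be counted for either gene if strand was not used. Tmem176a changed by 0.58 (adjusted p = 0.0333) and Tmem176b by 0.51 (adjusted p = 0.0388), both ion channel-like proteins of immune cells and liver. Tmem176a missed the threshold without control female 1, control female 2, control female 5, control female 6, LKO female 2 or LKO female 3 (up to 0.076), and Tmem176b passed without LKO female 1, LKO female 4, LKO female 5 or LKO female 6 only (up to 0.0923). Around Cpt1a itself, 29 tested genes lay within 1 Mb on chromosome 19, with log2 changes from -0.35 to 0.91. Of these, Gstp1 was called, in the direction opposite to Cpt1a.

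The males gave the same contrast in separate livers. Cpt1a was at 303 to 431 CPM in the 5 control males and 42.2 to 96.8 CPM in the 6 LKO males (log2 fold change -2.50, SE 0.19, adjusted p = 9.97e-05). It was the single gene of those in the female comparison that was called in males, 0.0102% of 9843 tested, while 1345 (13.7%) had an unadjusted p under 0.05. Of the 149 genes called in females, 102 had the same sign in males (68.5%, against 50.7% of all the genes). Of the 95 that rose in females, 67 were higher in LKO males with a median log2 change of 0.10, and of the 54 that fell, 35 were lower with a median of -0.12. An unadjusted p under 0.05 in males was reached by 18 of the 149, Cpt1a included, beside 13.7% of all the genes. All 18 had the sign seen in females. They included Gstt3 (male log2 change -0.69, adjusted p = 0.149), Tm7sf2, Pmvk and Psen2.

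The male median log2 change was 0.14 for the lipid-associated macrophage list (0.60 in females) and -0.02 for fatty acid uptake and lipid droplets (0.45 in females). The PPAR-alpha list had 0.06 in males and 0.44 in females, and sterol synthesis -0.30 and -0.48. Fatty acid and triglyceride synthesis had 0.00 and -0.34, and interferon-stimulated genes 0.41 and -0.50. Among single genes, Gpnmb ranged from 0.566 to 38.6 CPM in control males and from 2.04 to 47.0 CPM in LKO males (log2 fold change 0.30, SE 0.82). Cidec ranged from 10.4 to 307 CPM and from 58.1 to 316 CPM (0.13, SE 0.58), and Osbpl3 from 1.86 to 38.8 CPM and from 20.5 to 45.8 CPM (0.65, SE 0.46). In all 3 genes the control males and the LKO males overlapped. The difference between the sexes was tested as an interaction over all 23 livers. By edgeR, 0 genes passed at an adjusted p under 0.05 and by DESeq2 96 of all genes tested, and without control male 4 edgeR called 17. An unadjusted p under 0.05 was reached by 1425 of 9858 (14.5%), and 85 of the 149 genes called in females among them. Since those 149 were chosen by their change in females, that count is a description. The lowest adjusted p among them was 0.112, for Lrtm1 (female minus male log2 change -2.65, SE 0.49), and Osbpl3 had 2.27 (SE 0.63, adjusted p = 0.18). The sexes were deposited in separate tables. CPM values were scaled within each sex, so levels are not on a scale shared between females and males. The interaction was fitted on the counts of both sexes together.

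**Figure D5:**
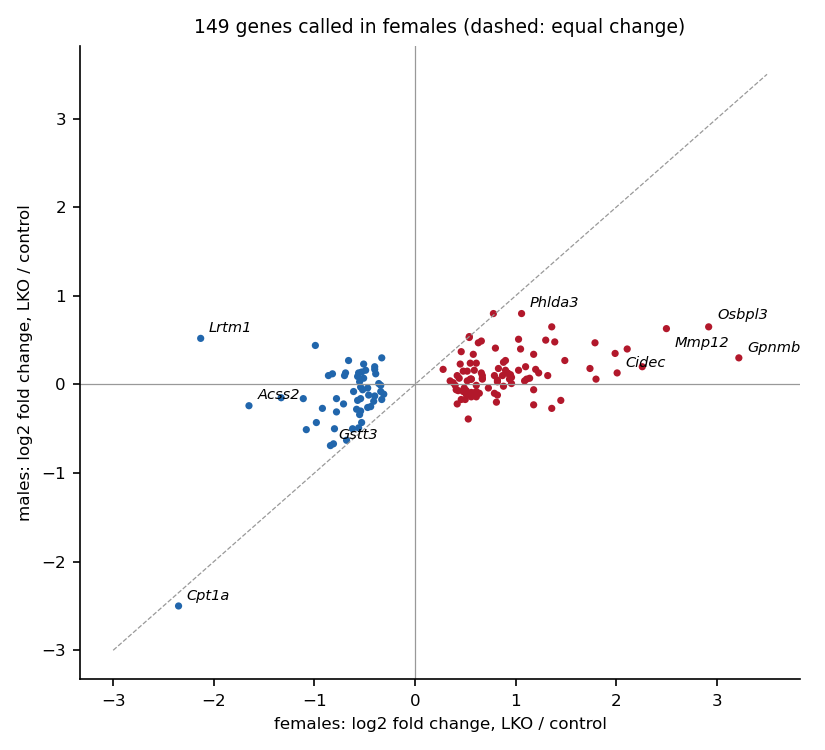
Log2 fold change in females (x axis) against males (y axis) for the 149 genes called in females, red where higher and blue where lower in LKO females, with the dashed line marking equal change. Cpt1a lies on the line in the lower left, whereas Gpnmb, Osbpl3 and Cidec lie at 0.30, 0.65 and 0.13 on the male axis.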

How the data were processed

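RNA from 23 mouse livers was sequenced after poly-T selection, with random hexamers and dUTP, per the labels' protocols. Reads were aligned with HISAT2 2.0.5 and the build named is mm39, per the submitters' processing notes; whether counting used strand is not given in the sources used here. The deposited tables hold whole-number read counts per gene, FPKM values per liver, and, for each sex, the authors' log2 fold changes and p-values.

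Tests used the deposited counts. Genes of the 12 female livers were filtered with filterByExpr, scaled by TMM and tested with edgeR 4.0.16 (quasi-likelihood, R 4.3.3), with p-values adjusted over all 13684 genes by Benjamini-Hochberg; a call is an adjusted p under 0.05. CPM values are scaled by TMM. DESeq2 1.42.0, limma 3.58.1 (voom with sample weights), other scalings and filters, a fit of all livers and leaving out each liver were alternatives. The script was tested on simulated counts. In the authors' deposited table, 407 of the genes described passed an adjusted p under 0.05, 218 higher and 189 lower, including all 149 called here.

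Named genes were Cpt1a, the 15 largest increases and 15 largest decreases among called genes without overlap, the 8 called genes of highest FPKM, the 4 genes of lowest p on each of 41 lists, and called genes within 1 Mb of another; further genes are said to be chosen afterwards, and a few genes the rule names are not reported here. The comparison, rule and lists were chosen with earlier results of these data known. Promoters came from RefSeq (GRCm38.p6); 7906 of 9861 tested genes matched.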

Additional observations from a re-analysis of the deposited data

Results flagged for a closer look

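In a group of 6 livers, a value counts as far from the others when its gap to the nearest, as a share of the group's range, is above Dixon's critical value for 6 values, which chance gives in about 1 of 20 groups. Among the 216 groups examined, 2 for each of 108 genes, 17 held such a liver.

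LKO female 6 held 4 of them: Saa1 at 1347 CPM (71.1 to 153 in the other 5), Lcn2, a siderophore-binding protein, at 961 CPM (39.1 to 82.6), Hp, haptoglobin, at 12716 CPM (5517 to 6256), and Fgf21 at 63.5 CPM (6.10 to 18.1). Without this liver the Lcn2 change was 0.81 in place of 2.55. LKO female 5 held Jchain, the joining chain of secreted antibodies, at 34.9 CPM (0.587 to 5.22), whose change without it was 0.79 in place of 2.45, and Col5a2 at 3.57 CPM (4.85 to 5.47). Control female 6 held Ifit1 at 48.3 CPM (15.9 to 25.8) and Ifit3 at 95.2 CPM (32.1 to 46.4). Control female 2 held Acss2 at 500 CPM (67.8 to 160) and Pnpla3 at 22.6 CPM (3.58 to 10.4).

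Control female 4 held Tlr12 at 39.1 CPM (12.2 to 16.5) and Nrn1 at 142 CPM (188 to 216). LKO female 3 held Nrn1 at 112 CPM (136 to 141) and Lrtm1 at 0.559 CPM (2.38 to 3.23). LKO female 1 held Rdh16f2 at 228 CPM (121 to 161) and Car14 at 17.4 CPM (5.58 to 8.39). Control female 5 held S100a11 at 6.10 CPM (9.57 to 10.8).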

How the results depend on the processing

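Counts of calls depended on the tool and on single livers more than on scaling. Over all 13684 genes (194 calls) and over the genes described (149), DESeq2 called 559 and 422, voom with sample weights 316 and 246, the fit of all 23 livers 94 and 70, and the fit with the replicate number as a block 334 and 271. Leaving out 1 liver gave 87 to 233 and 68 to 182. Leaving out control females 2 and 6 and LKO females 5 and 6 together, a choice made after seeing the data, gave 83 and 65 calls, 42 of the latter among the 149. The interaction with sex gave 0 calls, 96 by DESeq2 and 0 to 17 without 1 liver. The other scalings and filters kept both counts within 1.5 times. Under every alternative, 145 of the 149 genes were tested and kept their sign. A gene left out by the filter of any alternative is not among the 145, so the rest need not have changed sign. Of 2262 values of named genes under alternatives, 1815 kept their side of the threshold, 388 lost it, 59 gained it and 0 reversed. Scaling by library size alone ended the calls of Gusb, Pmvk, Acss2, Fgfr4, Aldh1l1, Qdpr and Slc17a3, and RLE scaling that of Ephx1. No filter on low counts ended those of Gusb and Slc17a3, requiring 10 counts in every sample those of Pmvk and Acss2, voom the same pair, the block those of Cxcl14, Gusb, Aldh1l1 and Slc17a3, and the fit of all 23 livers 49 of 87. Calls of named genes gained were 3 by library size, 3 by no filter (Il1rn, Plin2 and Crat), 8 by the block (Il1rn, Plin2, Fabp2, Crat, Pex11a, Pnpla3, Me1 and Abcb11), 9 by voom, 16 by DESeq2 and 2 by the fit of all 23 livers. Livers of the same replicate number correlated at -0.02 to 0.24 across genotypes, and 7 of the 12 correlated best with their own number. The labels do not say what a shared number means, so the main fit did not pair the livers. Whether they form pairs or batches was not tested. Precision is limited by 6 livers a group, and genes near 50 counts carry most sampling error.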

Other observations

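The following called genes lie outside the rule for named genes and were chosen after their values were seen. They are described singly, and no group of them was tested. Anxa2, an annexin, was at 15.6, 22.5 and 28.1 CPM (lowest, median, highest) in control females and 28.5, 38.3 and 47.7 CPM in LKO females (log2 fold change 0.79, SE 0.15, adjusted p = 0.0159). S100a11, a calcium-binding partner of annexins, rose by 0.90 (SE 0.14, adjusted p = 0.00577), and Plscr1, a phospholipid scramblase, by 0.56 (SE 0.10, adjusted p = 0.0159), all 3 without overlap. Anxa5, which binds phosphatidylserine, changed by 0.56 (SE 0.11, adjusted p = 0.0202) and missed the threshold without control female 1, control female 5, LKO female 2 or LKO female 3, with adjusted p up to 0.0621. Mfge8, which bridges phosphatidylserine to phagocytes, changed by 0.52 (SE 0.11, adjusted p = 0.0251) and missed it without control female 5, control female 6, LKO female 2 or LKO female 3, with adjusted p up to 0.0698.

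Ung, which removes uracil from DNA, was at 9.5, 13.3 and 17 CPM in controls and 21.2, 25 and 31.6 CPM in LKO livers (0.87, SE 0.13, adjusted p = 0.00651), without overlap. Cda, cytidine deaminase, changed by 0.82 (SE 0.16, adjusted p = 0.0192), lost without control female 5, LKO female 2 or LKO female 3 (adjusted p up to 0.0581). Upp1, uridine phosphorylase, changed by 0.73 (SE 0.16, adjusted p = 0.0384), lost without control female 1, control female 3, control female 5, control female 6, LKO female 2, LKO female 3 or LKO female 4 (adjusted p up to 0.0983).

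Large increases with overlap were those of Cntnap1, a cell adhesion protein of myelinated axons (2.11, SE 0.37, adjusted p = 0.0126), Gpc1, a heparan sulfate proteoglycan (1.79, SE 0.33, adjusted p = 0.0156), and Tlr12, a Toll-like receptor (1.49, SE 0.26, adjusted p = 0.0113). Each overlapped through a single LKO liver, LKO female 1 for Cntnap1 and Gpc1 and LKO female 5 for Tlr12. For Tlr12 the highest control, control female 4, was at 39.1 CPM against 12.2 to 16.5 CPM in the other controls. Phlda3, a p53 target that restrains AKT, rose by 1.06 (SE 0.20, adjusted p = 0.0156) and had a male change of 0.80 (adjusted p = 0.358). Ucp2, an uncoupling protein family member, changed by 0.42 (SE 0.09, adjusted p = 0.0384), lost without control female 1, control female 2, control female 5, control female 6, LKO female 2, LKO female 3 or LKO female 6 (adjusted p up to 0.0932).

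Among the decreases, Dmgdh and Slc6a12 both act on betaine and its products: Dmgdh, dimethylglycine dehydrogenase, fell from 302, 344 and 360 CPM to 242, 248 and 288 CPM (-0.40, SE 0.07, adjusted p = 0.0134), and Slc6a12, a betaine transporter, from 79.5, 91.7 and 98.0 CPM to 58.7, 66.7 and 71.2 CPM (-0.46, SE 0.07, adjusted p = 0.00803). Neither overlapped. Nrn1, neuritin, fell by 0.54 on the log2 scale (SE 0.10, adjusted p = 0.0166). Ntrk2, a neurotrophin receptor, changed by -0.99 (SE 0.20, adjusted p = 0.0251), lost without control female 5, control female 6 or LKO female 3 (adjusted p up to 0.0631). Car14, a carbonic anhydrase, changed by -1.11 (SE 0.25, adjusted p = 0.04) and passed without control female 1, control female 2, control female 4 or LKO female 1 only (adjusted p up to 0.0987).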
